A study of Homo sapiens with 6 samples.

Results

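Homologous recombination mends breaks in both DNA strands by copying the sister chromatid, and the Fanconi anemia pathway unhooks crosslinks that tie the strands together and then hands the lesion to recombination. A nuclear core complex ubiquitinates the FANCD2-FANCI clamp on chromatin, nucleases resect the broken ends, the BRCA proteins prepare the resected ends for strand invasion, and the BLM complex dissolves the joined molecules afterwards. Most of these genes are used in S and G2 phase, when a sister chromatid is present. The 37 genes described here were chosen by name from these pathways, with 4 checkpoint kinases and 2 mismatch repair genes. That choice was made with earlier results of these data known, so shares and medians of the members describe this list only. They were taken out of 58051 genes in the count tables, and all 37 had enough counts to be tested.

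The counts came from A172, an established human glioblastoma line, in which lentivirus carried an expression construct for RBFOX1 or for GFP. RBFOX1 is a neuronal RNA-binding protein that recognizes the word TGCATG. The GFP cells, infected by the same procedure with a separate virus on the same vector backbone, were the controls. There were 3 libraries of each, described in the study's methods as biological replicates, and no untransduced cells are compared here. Stable cells were made from packaged virus added to the line, and no cloning step is described. The p-values measure the spread between these replicates, and whether each came from a separate infection is not explicit. If they did not, an effect of RBFOX1 cannot be told apart from a difference between infected populations.

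Total counts on genes ran from 7433414 to 23249221, and 3 counts corresponded to 1.82 to 5.44 normalized counts, so each member was measured well above that floor. RBFOX1 itself had 4, 0 and 1 counts in the GFP libraries and 10276, 16467 and 21451 in the RBFOX1 libraries, which checks the labels. GFP replicate 1 stood apart from the other GFP libraries, at a chi-square of 8.08 and 8.23 for each degree of freedom when set against them, where they differed from each other by 1.6. Of 10 markers listed for a glioblastoma line, S100B and FABP7 had at most 3 counts in every library and GFAP at most 4, while VIM and CD44 were abundant. The summed level of that list was 5580 to 5670 CPM (counts scaled by the TMM-adjusted library total) in GFP and 3720 to 3780 in RBFOX1 cells. The summed lists for neurons (12.4 to 13.0 against 25.6 to 33.2), immune cells (1.09 to 2.54 against 3.92 to 5.2) and endothelium (1.29 to 1.53 against 7.23 to 8.75) were higher in RBFOX1 cells, but the genes of a list did not all move with its sum. Of the tested markers, 3 glioblastoma genes (SOX2, NES and CHI3L1) were higher and 4 lower, 1 of 3 neuronal genes (MAP2), 1 of 3 immune genes (PTPRC) and 3 of 4 endothelial genes were higher, and no gene of the neuronal, immune and endothelial lists was called lower. RBFOX3, SNAP25, CD3E, AIF1 and CLDN5 had 3 counts or fewer in every library. Their part in the results was not tested.

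The windows around the transcription start of 5 members are shown as examples of genes that rose and fell, with the words searched. EXO1, RAD51AP1 and FANCD2 rose by 2-fold or more in RBFOX1 cells, and FANCF and ATM fell. Each window runs from 250 bases before to 50 bases after the start (RefSeq, GRCh38.p14), is written 5′ to 3′ on the gene's strand, and has capitals where it holds, on either strand, CCAAT or TTTGAA, or the E2F words TTGGCGC or TTCGCGC or TTCCCGC.
EXO1, chr1:241847954-241848253, plus strand: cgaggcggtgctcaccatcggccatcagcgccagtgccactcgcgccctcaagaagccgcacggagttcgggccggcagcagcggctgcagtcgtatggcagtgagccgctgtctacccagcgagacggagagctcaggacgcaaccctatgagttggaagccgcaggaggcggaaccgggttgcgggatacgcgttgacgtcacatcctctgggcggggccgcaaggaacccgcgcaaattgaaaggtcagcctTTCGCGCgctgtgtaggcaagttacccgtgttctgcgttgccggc
RAD51AP1, chr12:4538640-4538939, plus strand: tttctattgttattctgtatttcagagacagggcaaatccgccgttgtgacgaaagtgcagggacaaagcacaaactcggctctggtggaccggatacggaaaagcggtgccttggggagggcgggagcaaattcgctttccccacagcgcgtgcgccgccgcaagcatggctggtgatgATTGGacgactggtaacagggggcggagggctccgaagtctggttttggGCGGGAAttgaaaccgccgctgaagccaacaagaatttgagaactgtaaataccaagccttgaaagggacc
FANCD2, chr3:10026187-10026486, plus strand: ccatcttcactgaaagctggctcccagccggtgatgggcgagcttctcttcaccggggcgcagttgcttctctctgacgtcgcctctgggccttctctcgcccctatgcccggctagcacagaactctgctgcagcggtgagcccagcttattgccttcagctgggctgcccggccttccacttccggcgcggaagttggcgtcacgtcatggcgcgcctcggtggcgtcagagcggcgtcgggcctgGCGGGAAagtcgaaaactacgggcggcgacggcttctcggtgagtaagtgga
FANCF, chr11:22625774-22626073, minus strand: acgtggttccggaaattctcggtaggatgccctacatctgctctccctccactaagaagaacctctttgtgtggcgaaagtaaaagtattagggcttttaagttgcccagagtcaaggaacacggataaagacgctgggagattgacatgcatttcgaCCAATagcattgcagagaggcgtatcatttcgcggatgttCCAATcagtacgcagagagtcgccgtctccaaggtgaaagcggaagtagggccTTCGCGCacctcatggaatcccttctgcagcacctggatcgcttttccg
ATM, chr11:108222817-108223116, plus strand: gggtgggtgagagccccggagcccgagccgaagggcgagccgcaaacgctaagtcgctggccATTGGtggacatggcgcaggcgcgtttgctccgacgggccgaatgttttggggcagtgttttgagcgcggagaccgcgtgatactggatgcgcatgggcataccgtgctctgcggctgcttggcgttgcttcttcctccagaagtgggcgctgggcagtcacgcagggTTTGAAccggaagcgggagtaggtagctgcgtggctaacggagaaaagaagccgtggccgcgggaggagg
The same word, TTCGCGC, lies near the start of EXO1 and of FANCF, whose counts moved in opposite directions. The window of ATM holds a TTTGAA and a CCAAT but none of the E2F words.

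The members were, for the most part, higher in RBFOX1 cells. By edgeR's quasi-likelihood test at an adjusted p under 0.05, 27 of the 37 were higher, against 23.7% of all 20536 genes tested, 3 were lower, against 22.9%, and 7 had no call. DESeq2 called 24 higher, against 18.8% of the genes it tested, and 2 lower, against 17.6%. In bulk RNA, fewer cells of a type and less RNA per cell cannot be told apart, so these are differences in the RNA of the whole culture. The median log2 fold change of the members was 0.447, and that of all genes was 0.00512. Without GFP replicate 1, 26 members were higher and 3 lower, with a median of 0.45. Among protein-coding genes with a mean of at least 50 normalized counts, 31.5% were higher and 33.6% lower. Most differences were modest: 22 members differed by less than 1.5-fold, 5 rose by at least 2-fold, against 8.23% of all genes, and 0 fell by that much, against 4.48%. The 3 RBFOX1 libraries lay entirely above the 3 GFP libraries for 26 members, against 26.9% of all genes, and entirely below for 3, against 26.5%. The median of the members relative to the GFP mean was 0.396, 0.531 and 0.444 in the RBFOX1 libraries.

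**Figure D1:**
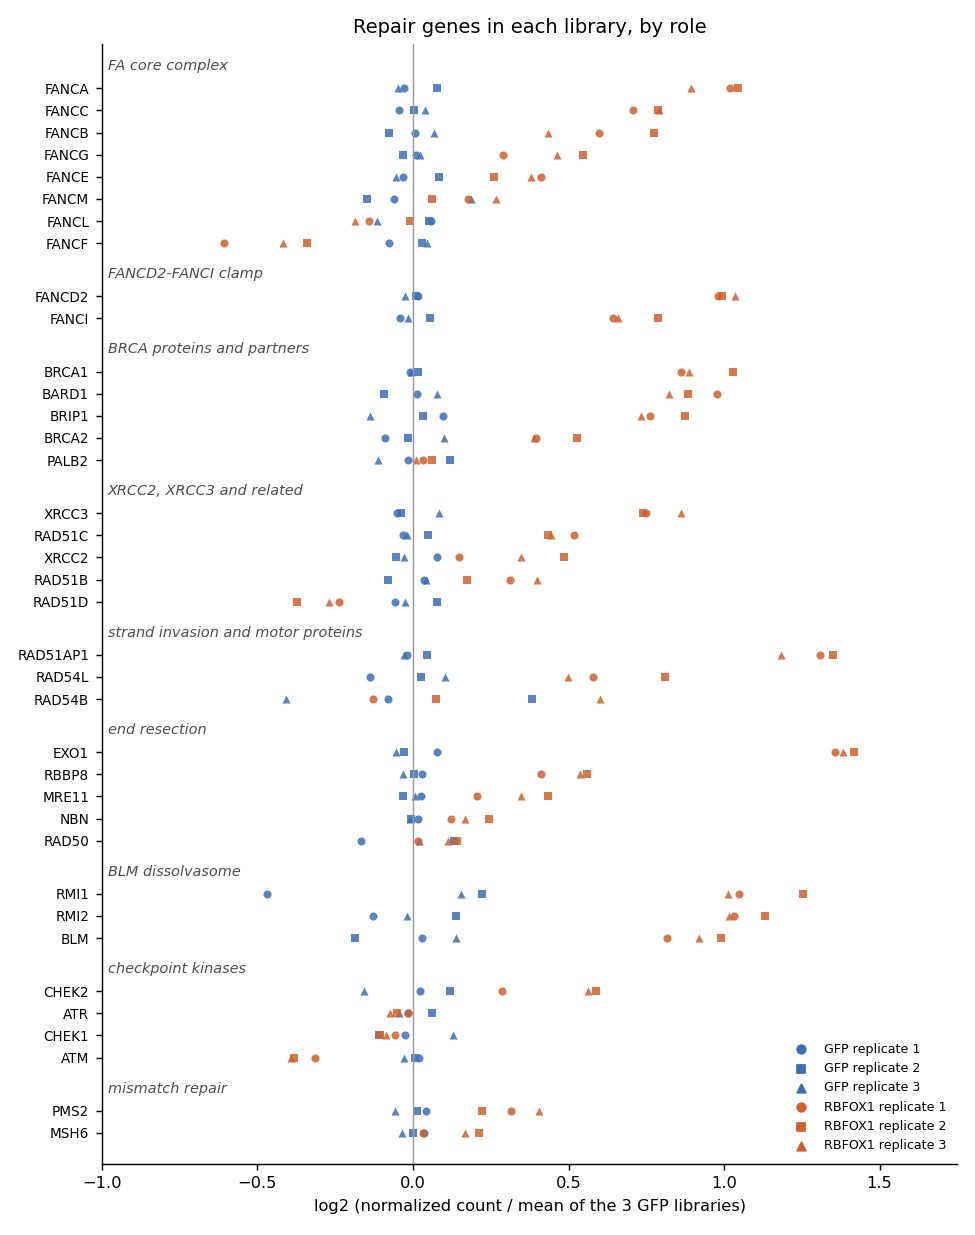
Each row is a gene, grouped by role, and each symbol is a library, placed by its log2 normalized count over the GFP mean (blue GFP, orange RBFOX1; n = 3 each). Most orange symbols lie to the right of the blue ones, those of FANCF, RAD51D and ATM lie to the left, and RAD54B and RMI1 show the widest GFP spread.

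**Figure D2:**
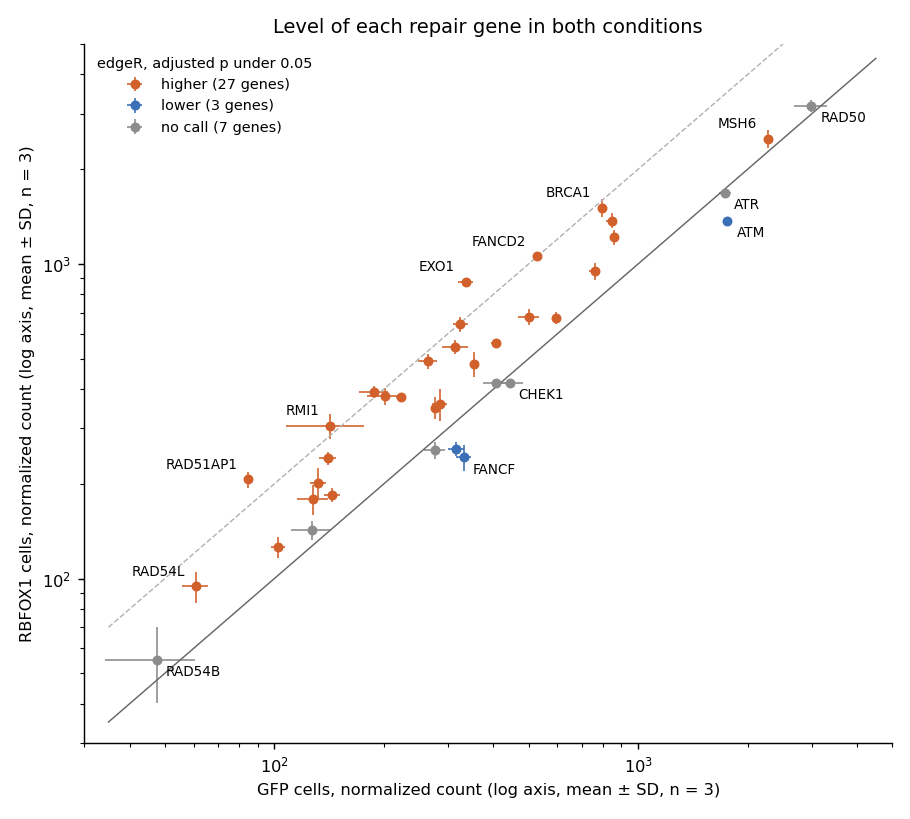
Mean normalized count of each gene in GFP cells (x axis) and RBFOX1 cells (y axis), both log axes, with the SD of 3 libraries as bars; the solid line marks equal levels and the dashed line a 2-fold rise. EXO1 and RAD51AP1 lie farthest above the dashed line, and ATM and FANCF lie under the solid one.

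The Fanconi core complex, the ubiquitin ligase that marks the clamp, had 5 of its 8 listed subunits higher, 1 lower and 2 without a call, with a median log2 fold change of 0.40. The shares of all genes to set beside this and the later counts are 23.7% higher and 22.9% lower. Among protein-coding genes with a mean of at least 50 normalized counts, a closer match in level, they are 31.5% and 33.6%. FANCA, a scaffold subunit, had 318, 342 and 314 normalized counts in GFP and 658, 669 and 604 in RBFOX1 libraries. Its log2 fold change of 0.99 ± 0.0729 (SE, edgeR adjusted p = 7.2e-10) was just short of 2-fold, the nearest of those outside that limit. FANCC (log2 fold change 0.77), FANCB (0.60), FANCG (0.45) and FANCE (0.35) also rose. FANCE had an adjusted p of 0.00654 with edgeR and 0.0565 with DESeq2. FANCF, an adaptor that holds the complex together, was the exception: it fell from 314, 339 and 342 normalized counts to 218, 262 and 248. These groups did not overlap, and the fall of 1.35-fold passed the test (log2 fold change -0.43 ± 0.087, SE; edgeR adjusted p = 0.000366). FANCL, the catalytic subunit, had 288, 286 and 255 against 250, 274 and 243, with overlapping groups and a 95% interval of the log2 difference from -0.30 to 0.0691 (edgeR adjusted p = 0.314). FANCM, the DNA translocase that anchors the complex to chromatin, had a log2 fold change of 0.18 with an interval from -0.0679 to 0.42 (edgeR adjusted p = 0.237). The called subunits of this complex thus moved in both directions.

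Both proteins of the clamp rose. FANCD2 (chromosome 3, 10026370 to 10101932, GRCh38) had 533, 530 and 518 normalized counts in GFP and 1039, 1049 and 1079 in RBFOX1 libraries. That is 2.0-fold (log2 fold change 1.00 ± 0.0592, SE; edgeR adjusted p = 2.25e-11), with SDs of 7.80 and 20.8 around means of 527 and 1056. FANCI had 822, 879 and 836 against 1322, 1460 and 1336, or 1.63-fold (edgeR adjusted p = 4.4e-09). The ratio of FANCD2 to FANCI within a library was 0.648, 0.603 and 0.62 in GFP and 0.786, 0.719 and 0.808 in RBFOX1 libraries, and the groups did not overlap.

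Among the BRCA proteins and their partners, 4 of 5 rose, with a median log2 fold change of 0.783. BRCA1, the ubiquitin ligase that promotes resection, had 788, 802 and 789 normalized counts in GFP and 1440, 1619 and 1466 in RBFOX1 libraries (log2 fold change 0.93 ± 0.0586, SE; edgeR adjusted p = 6.1e-11). BARD1, its obligate partner, rose by 0.88 on the log2 scale, and the ratio of BRCA1 to BARD1 was 3.01 ± 0.212 (SD, n = 3) in GFP and 3.07 ± 0.282 in RBFOX1 cells, with overlapping libraries. BRIP1, the helicase bound to BRCA1, rose by 0.78. BRCA2, which acts on the resected single strand, rose less, by 0.45. PALB2, the bridge between BRCA1 and BRCA2, had 403, 443 and 377 against 417, 425 and 410, with a 95% interval of the log2 difference from -0.123 to 0.20 (edgeR adjusted p = 0.737). The ratio of BRCA2 to PALB2 was 1.17, 1.12 and 1.42 in GFP and 1.58, 1.7 and 1.6 in RBFOX1 libraries.

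RAD51B, RAD51C, RAD51D, XRCC2 and XRCC3 are related proteins that work together in strand exchange, and 4 of the 5 rose while 1 fell. XRCC3 had the largest rise (log2 fold change 0.80 ± 0.0955, SE; edgeR adjusted p = 7.41e-07). RAD51C rose by 0.46, XRCC2 by 0.34 and RAD51B by 0.29, the last with an edgeR adjusted p of 0.0478. RAD51B lost that call when any library other than RBFOX1 replicate 2 was left out, with adjusted p-values from 0.0609 (GFP replicate 1) to 0.206 (RBFOX1 replicate 3). Its adjusted p was 0.217 with DESeq2, 0.0513 with limma-voom, and 0.0609 in the fit with a replicate block, and 13 of 17 alternatives lost the call. RAD51D fell, from 304, 334 and 311 normalized counts to 268, 244 and 262, in groups that did not overlap. Its fall was 1.22-fold (log2 fold change -0.29 ± 0.0831, SE; edgeR adjusted p = 0.00673), DESeq2 gave an adjusted p of 0.0503, and 8.89% of its exonic bases overlap other annotated genes. The ratio of RAD51C to RAD51D, which sit in 1 complex with RAD51B and XRCC2, was 1.31, 1.26 and 1.29 in GFP and 2.16, 2.24 and 2.1 in RBFOX1 libraries.

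RAD51AP1, which stimulates strand invasion, had the second largest rise of all members. It had 83.8, 87.6 and 83.2 normalized counts in GFP and 210, 216 and 193 in RBFOX1 libraries, or 2.43-fold (log2 fold change 1.28 ± 0.109, SE; edgeR adjusted p = 5.53e-09). RAD54L, a motor that moves along DNA, rose by 0.65 ± 0.145 on the log2 scale (SE; edgeR adjusted p = 0.000909) from a low count. RAD54B, its relative, had 44.9, 61.9 and 35.8 against 43.5, 50 and 72.1, with a 95% interval of the log2 difference from -0.15 to 0.74 (edgeR adjusted p = 0.283). The RAD54B groups overlapped, and 66.0% of its exonic bases lie in FSBP on the same strand, so its count is uncertain.

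Of the 5 resection genes, 4 rose, by unequal amounts, and 1 had no call. EXO1, the exonuclease of long-range resection and of mismatch repair, had the largest rise of the 37. The gene (chromosome 1, 241847967 to 241895148) had 355, 329 and 323 normalized counts in GFP and 860, 896 and 876 in RBFOX1 libraries, or 2.6-fold (log2 fold change 1.38 ± 0.067, SE; edgeR adjusted p = 1.13e-12). RBBP8, the CtIP cofactor that starts resection, rose by 0.51, and MRE11, the nuclease of the end-binding complex, by 0.34. NBN, which recruits that complex, rose by 0.18 with an edgeR adjusted p of 0.0239. NBN lost the call without GFP replicate 2 (adjusted p = 0.0603), GFP replicate 3 (0.0619) or RBFOX1 replicate 2 (0.104), and with DESeq2 (0.0755). It also lost the call without the low-count filter (edgeR adjusted p = 0.0623), and in 7 of 17 alternatives in all. RAD50, the coiled-coil ATPase of the complex, had 2664, 3276 and 3029 against 3026, 3298 and 3232, in overlapping groups, with a 95% interval from -0.0346 to 0.23 (edgeR adjusted p = 0.228). Without GFP replicate 2 it passed (log2 fold change 0.16, adjusted p = 0.0361). The ratio of EXO1 to RBBP8 was 0.404, 0.382 and 0.385 in GFP and 0.752, 0.707 and 0.702 in RBFOX1 libraries, the widest separation of the pairs compared.

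The BLM helicase and its partners rose together, with a median log2 fold change of 1.08. RMI1, an OB-fold scaffold, had 103, 166 and 158 normalized counts in GFP and 294, 339 and 287 in RBFOX1 libraries (log2 fold change 1.16 ± 0.136, SE; edgeR adjusted p = 5.09e-07). GFP replicate 1 was the lowest of them, and without it the rise was 0.927 on the log2 scale (edgeR adjusted p = 6.97e-08). RMI2, the second OB-fold subunit, had 171.8, 207 and 185 against 385, 412 and 380 (log2 fold change 1.08 ± 0.0885, SE; edgeR adjusted p = 3.44e-09). BLM itself had 206, 178 and 222 against 356, 401 and 382 (log2 fold change 0.91 ± 0.0907, SE; edgeR adjusted p = 5.73e-08). In all 3 genes every RBFOX1 library lay above every GFP library.

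Of the 4 checkpoint kinases, 1 was higher (25%), 1 lower (25%) and 2 had no call, with a median log2 fold change of -0.0668. These shares are close to the 23.7% higher and 22.9% lower of all genes tested. They lie under the 31.5% and 33.6% of protein-coding genes with a mean of at least 50 normalized counts. ATM, the kinase that answers breaks, fell from 1785, 1768 and 1727 normalized counts to 1415, 1351 and 1340. The groups did not overlap, and the fall of 1.29-fold passed the test (log2 fold change -0.37 ± 0.051, SE; edgeR adjusted p = 5.19e-06). ATR, the kinase that answers single-stranded DNA, had 1712, 1808 and 1679 against 1716, 1671 and 1646, with an interval from -0.155 to 0.0596 (edgeR adjusted p = 0.488). CHEK1, the target of ATR, had 435, 411 and 485 against 426, 412 and 417, with an interval from -0.245 to 0.0733 (edgeR adjusted p = 0.392). CHEK2, the target of ATM, rose by 0.51 ± 0.112 on the log2 scale (SE; edgeR adjusted p = 0.000852), and reads from its pseudogenes make that count uncertain.

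Both mismatch repair genes listed here rose slightly. PMS2, an endonuclease subunit with many pseudogene copies and so an uncertain count, rose by 0.32 ± 0.063 on the log2 scale (SE; edgeR adjusted p = 0.00032). MSH6, which recognizes base mismatches, had 2327, 2267 and 2212 normalized counts in GFP and 2318, 2630 and 2548 in RBFOX1 libraries. It was the only gene called higher whose groups overlapped (log2 fold change 0.14, edgeR adjusted p = 0.0345). It lost the call without GFP replicate 2 (adjusted p = 0.0753), GFP replicate 3 (0.106), RBFOX1 replicate 2 (0.152) or RBFOX1 replicate 3 (0.11). Upper quartile scaling (edgeR adjusted p = 0.0678) and no low-count filter (0.0559) also removed it, and 10 of 17 alternatives lost the call. Processed or partial copies also exist for FANCD2, BRCA1, MRE11, RBBP8 and RAD51AP1, and reads shared with them were not resolved here.

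Ratios between partners within a library do not depend on the scaling between libraries. Of 16 pairs, 9 did not overlap between the conditions. Single genes lay entirely above for 26.9% of all genes and entirely below for 26.5%, but a ratio carries the noise of both its genes. No share over other gene pairs was computed, so the count cannot be read as a result about these pairs. With 3 libraries against 3 the exact permutation test (two-sided) cannot go below p = 0.1, which is 0.178 after Benjamini-Hochberg adjustment over the pairs, so none could pass. Besides those already given, the ratio of ATM to ATR was 1.02 ± 0.0339 (SD, n = 3) in GFP and 0.816 ± 0.00806 in RBFOX1 cells. CHEK1 to CHEK2 was 3.51 ± 0.646 against 2.36 ± 0.323, XRCC2 to XRCC3 was 2.04 ± 0.172 against 1.49 ± 0.19, NBN to MRE11 was 2.15 ± 0.0342 against 1.94 ± 0.0783, and FANCA to FANCC was 1.46 ± 0.0814 against 1.71 ± 0.126. The other pairs overlapped: BRIP1 to BRCA1, RAD54L to RAD54B, RAD50 to MRE11, BLM to RMI1, RMI2 to RMI1, MSH6 to PMS2 and BRCA1 to BARD1.

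**Figure D3:**
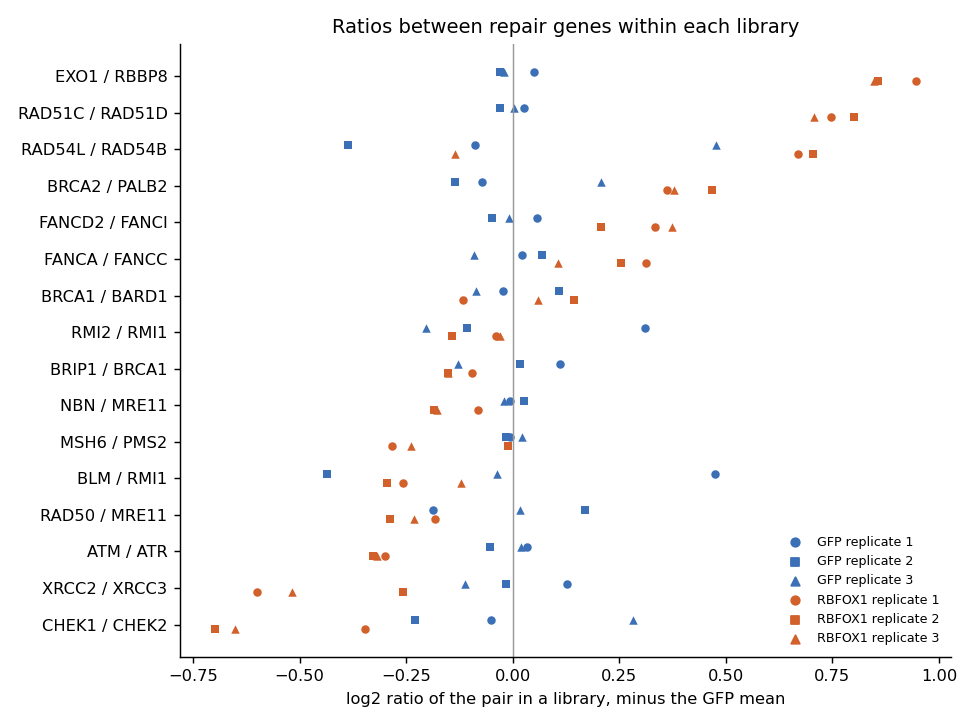
Log2 ratio of each gene pair within a library, minus the mean of the 3 GFP libraries (blue GFP, orange RBFOX1). For EXO1 to RBBP8 and RAD51C to RAD51D every orange symbol lies far to the right, and for ATM to ATR and CHEK1 to CHEK2 every orange symbol lies to the left.

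Compared per length of all annotated exons, RAD50 had the highest level in GFP cells, 20.4 CPM per kilobase, followed by RBBP8 with 12.2 and MSH6 with 9.22. FANCM (0.479), FANCL (0.524) and RAD54B (0.644) were lowest. With the canonical transcript's length instead, a choice added after the data were seen, MSH6 (38.3) led RAD50 (26.0) and RBBP8 (18.9), and FANCL moved to 12, so the order of levels depends on the length used. EXO1 went from 5.85 to 15.3 on the first scale. The coefficient of variation between libraries had a median over the members of 4.91% in GFP and 5.53% in RBFOX1 cells.

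Other genes of the same pathways moved in both directions. Of 21 tested Fanconi companions, 10 were higher and 6 lower, with a median log2 fold change of 0.16. UHRF1 (1.11), a chromatin reader that senses crosslinks, USP1 (0.77), which removes ubiquitin from the clamp, and EME1 (0.73), a nuclease subunit, rose the most. The nuclease subunits ERCC1 (-0.58), EME2 (-0.36) and ERCC4 (-0.36) fell the most among those with a mean of at least 50 normalized counts. HES1, with fewer counts, fell further (log2 fold change -0.87, edgeR adjusted p = 0.0127). Of 35 tested recombination companions, 17 were higher and 12 lower, with a median of 0.181. The junction resolvase GEN1 (0.99) and RPA2 (0.82), which coats single-stranded DNA, were among the largest rises, and SWI5 (-0.74), an accessory factor of strand exchange, FIGNL1 (-0.71), an ATPase, and ABRAXAS1 (-0.61), a scaffold of a BRCA1 complex, fell the most. Of 19 checkpoint companions, 12 were higher and 1, the clamp loader RAD17 (-0.35), was lower, with a median of 0.323. There the mitotic phosphatase CDC25C (1.66), the kinase WEE1 (1.62) and TIMELESS (1.07), a fork protection protein, rose the most.

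The other repair lists had medians below the 0.447 of the members. Of 8 mismatch repair companions, 5 were higher and 1 lower (median 0.294), with the ligase LIG1 (0.88) and the clamp loader RFC1 (-0.14) named as the largest rise and fall. Of 12 end joining genes, 6 were higher and 1 lower (median 0.11; XRCC4 0.59, POLL -0.30). Of 16 base excision genes, 5 were higher and 4 lower (median 0.0444; NEIL3 1.24, MPG -0.84). Of 17 tested nucleotide excision genes, 4 were higher and 7 lower (median -0.0916; ERCC2 0.94, DDB2 -0.82). Proliferation markers moved with the members: 24 of 25 were higher and 1, PCNA (-0.18), lower, with a median of 1.27 and the largest rise in RRM2 (2.21). EXO1 and RAD51AP1 were the 2 members above that median, and the other 35 were below it. The part of proliferation in the members' levels was not tested.

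**Figure D4:**
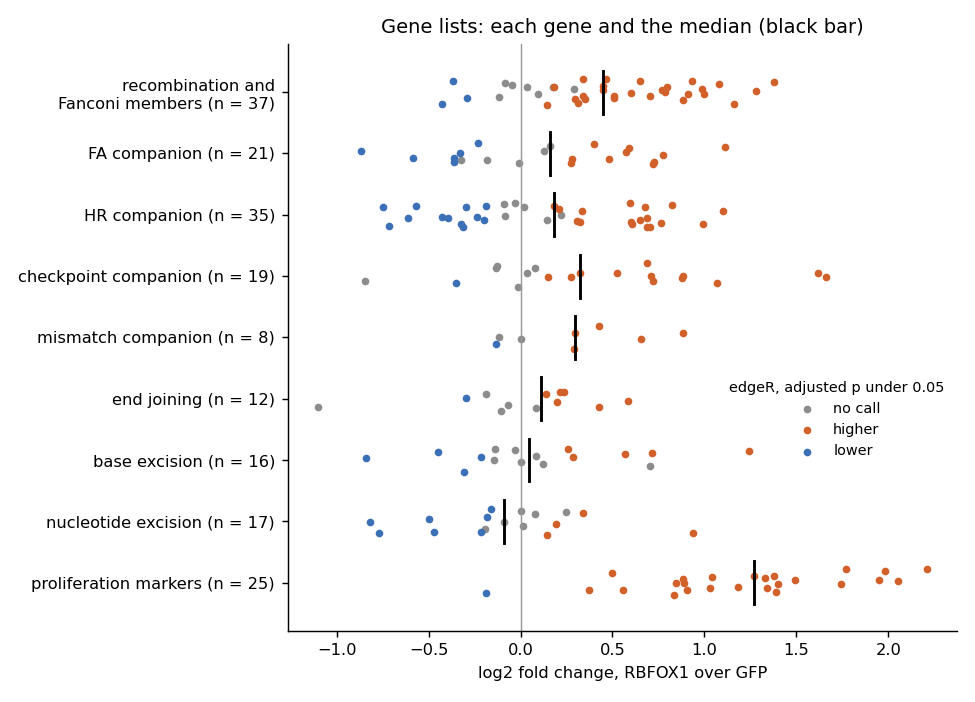
Log2 fold change of each tested gene in the member list and 8 comparison lists, coloured by its edgeR call, with black bars at the medians. The member median is 0.447, the proliferation median 1.27, and the nucleotide excision median lies under 0.

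E2F factors switch on many genes of S phase, and CCAAT is the word bound by NF-Y. The RefSeq table held windows for 33 of the 37 members, all but FANCI, RAD54B, NBN and RMI2. An E2F word was present on either strand in 17 of 33 (51.5%), against 14.8% of 15843 protein-coding promoters. CCAAT, which can overlap TTGGCGC on the opposite strand, was in 48.5% against 36.4%, and TTTGAA, the core of the cell cycle homology region, in 9.09% against 12.1%. Of the 17 members with an E2F word, 14 were higher, 2 (FANCF and RAD51D) lower and 1 (FANCL) without a call, with a median log2 fold change of 0.771. Of the 16 without, 10 were higher, 1 (ATM) lower and 5 without a call, with a median of 0.328. RMI1 and BRCA1 rose strongly without such a word in the window, but their windows lie 446 and 44963 bases from the canonical start, and those of CHEK1 and RAD51B are also displaced. All of these displaced windows fall in the group without an E2F word. A match describes letters and not a bound site, and the part of E2F factors in the members' levels was not tested.

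The RBFOX word TGCATG was found in the canonical 3′ UTR of 8 of the 37 members (21.6%), against 33.4% of 19238 genes, at a median UTR length of 1052 bases in the members and 1068 in all. They were FANCC, BRCA2, RAD51D, XRCC2, RAD54L, RAD50, ATM and PMS2. Except for RAD54L (191 bases), their UTRs ran from 1498 (BRCA2) to 8732 bases (RAD51D), above the median of the members. UTR length was thus not matched between the members with and without the word. The 8 had a median log2 fold change of 0.328, with 5 higher, 2 lower and 1 without a call, and the 29 without the word had a median of 0.506, with 22 higher, 1 lower and 6 without a call. Of the 3 members that fell, ATM held 1 site and FANCF held none. RAD51D held 3, the most of any member, in the longest 3′ UTR of the members (8732 bases). RAD50, with 2 sites, had no call. The sites of ATM and RAD51D are shown with 12 bases on each side (GRCh38, 5′ to 3′ on the gene's strand), the word in capitals.
ATM, chr11:108368062-108368091, plus strand: actctttagcctTGCATGgtatgctatgag
RAD51D, chr17:35100138-35100167, minus strand: actcatttaataTGCATGgtgccctgtggg
RAD51D, chr17:35094822-35094851, minus strand: ttaggcccttgaTGCATGtctcattatgac
RAD51D, chr17:35093101-35093130, minus strand: ataagcttatgaTGCATGggggatactgat
The first RAD51D site lies 798 bases past the stop codon of a UTR of 8732 bases, and the ATM site 2566 bases past the stop of a UTR of 3594 bases. Other members with the word, such as FANCC, rose.

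**Figure D5:**
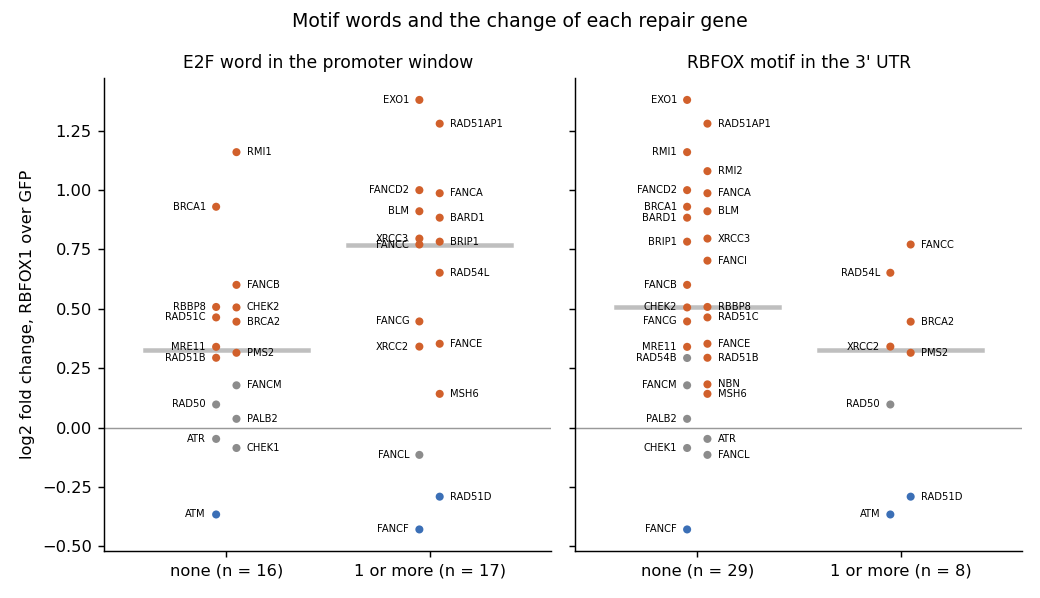
Log2 fold change of each member by the presence of an E2F word in its promoter window (left, 33 genes) or of the RBFOX word in its 3′ UTR (right, 37 genes), with grey bars at the medians. The medians are 0.771 with and 0.328 without an E2F word, and 0.328 with and 0.506 without the RBFOX word. The dots of both groups overlap in each panel, and UTR length was not matched between the groups on the right.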

How the data were processed

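RNA of A172 cells carrying a lentiviral RBFOX1 or GFP construct was sequenced from rRNA-depleted, stranded libraries (100 bp paired-end), 3 per condition. Per the study's methods, the authors used HISAT2 on GRCh38 and deposited the counts per gene that HTSeq-count gave in intersection-strict mode on Ensembl release 87, without normalization. The versions of HISAT2 and HTSeq-count are not given in the sources used here. The authors' DESeq2 table holds their fold changes and p-values and was not used.

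Genes whose 6 libraries summed to 10 counts or more were kept. Counts were scaled by TMM and fitted in edgeR 4.0.16 (R 4.3.3) with condition as the term, and the two-sided quasi-likelihood test was applied, with Benjamini-Hochberg adjustment over 20536 genes and a threshold of 0.05. Normalized counts are counts scaled to a common library size. The SE is the log2 fold change divided by the root of its F statistic. The reads that HTSeq assigned to no gene or to several, 6.61 to 8.74% and 6.89 to 9.35% of each library, stayed out. So did reads of too low alignment quality (16.8 to 27%) and reads not aligned (4.64 to 7.46%). Printed ratios are of normalized counts, and 0.5 was added to each count for their log2 differences, overlap and permutation test.

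Symbols, exons and 3′ UTRs came from GENCODE release 44, in which 98.1% of the identifiers were found, and promoter windows from RefSeq (GRCh38.p14). The members and lists were chosen with earlier results of these data known. Each member was named, and values per library were given for those called with at least a 2-fold rise, those that fell and the least changed of each role group; FANCA, BRCA1 and CHEK1 were added after their values were seen. Of the Fanconi, recombination and checkpoint lists the 3 largest rises and falls past the threshold with a mean of at least 50 normalized counts were named, and 1 of each for the other lists; 1 gene of the recombination list that this rule picks is not reported here. DESeq2 (1.42.0), limma-voom (3.58.1), other scalings and filters, thinned counts, a replicate block, stricter thresholds and the omission of each library were run as alternatives.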

Additional observations from a re-analysis of the deposited data

How the results depend on the processing

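Over the alternatives other than the 2-fold minimum, 24 to 27 members were higher and 2 to 3 lower, with a median log2 fold change from 0.403 to 0.497. Leaving out each library in turn gave 24 to 26 higher, 3 lower and a median from 0.403 to 0.473. With a fold of at least 2 also required, 5 were higher and 0 lower. ATR changed sign under scaling by total counts (log2 fold change 0.00386), and PALB2 without GFP replicate 3 (-0.00992, in a range up to 0.0845 over the libraries left out), neither with a call. Among the ratios, the log2 difference of BRCA1 to BARD1 turned to -0.0132 without GFP replicate 3 and to -0.0273 without RBFOX1 replicate 2 (up to 0.104 otherwise), and without GFP replicate 1 that of BLM to RMI1 turned to 0.0154 (otherwise down to -0.436) and that of RMI2 to RMI1 to 0.0848 (otherwise down to -0.171). The cause was not tested. Same-numbered libraries did not deviate together (correlations of -0.17, 0.0344 and -0.0554 over 12012 genes). Differently numbered ones gave -0.153 to 0.176, so this check cannot settle whether the numbers pair them. With the replicate block, 25 members were higher and 3 lower, with a median of 0.436. Scaling by total counts moved the median of all genes to 0.0552. With counts thinned to the smallest library, RAD51B (adjusted p = 0.0936) and MSH6 (0.0698) lost their calls with edgeR. Both also lost them at full depth with the replicate block (edgeR adjusted p = 0.0609 and 0.0669). The part of depth in these calls was not tested.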
